A study of Mus musculus with 6 samples.

Results

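Aquaporins are membrane channels that let water move along an osmotic gradient, and some of them also carry glycerol or other small solutes. The family includes classical water channels, aquaglyceroporins, and a distant branch found mostly inside the cell. In the pancreas, aquaporins are known from the acinar and duct cells that secrete fluid and from the small vessels, and Aqp7 is also known from beta cells of rodents. The family was followed here by name: every probe of the array whose gene name was Aqp1, Aqp3, Aqp4, Aqp5, Aqp6, Aqp7, Aqp8, Aqp9, Aqp11 or Aqp12 was taken, which gave 15 probes of 10 genes among 39429 probes. Aqp4 was chosen by its mutant-to-control difference on these same arrays, so its values in that contrast are given as a description without a test. The other 9 genes were taken for their family membership alone.

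The arrays measured RNA of islets isolated from male mice aged 6 weeks, in 3 mutant and 3 control samples, each pooled from 2 pancreata of the same genotype. The mutant mice were Nkx6.1fl/-;Pdx1-CreERTM and the control mice Nkx6.1fl/+;Pdx1-CreERTM, on mixed backgrounds of FVB/N, Cd1 and C57Bl/6J. All of them therefore carried a floxed Nkx6-1 allele and the Pdx1-driven, tamoxifen-activated recombinase, and all received 4 injections of tamoxifen, 2 mg per 25 g body weight, from 4 weeks of age. The induced deletion could therefore act on the floxed allele of both groups, and the controls kept a second, wild-type Nkx6-1 copy. The mutants carried a null allele in place of that copy before any tamoxifen. Effects of that allele and of the induced deletion cannot be told apart. Islets hold several endocrine cell types besides vessels and remnants of exocrine tissue, and Pdx1 is active mainly in beta cells of the adult pancreas. In such bulk RNA, fewer cells of a type and less RNA per cell cannot be told apart.

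Levels are given as log2 signal relative to the 75th percentile of the same array, so 0 is the 75th percentile and 1 unit is a doubling. Levels of different probes were not compared with each other, because a probe's brightness also depends on its sequence. Nkx6-1, the deleted gene, read 4.32, 4.06 and 4.45 in mutants 1 to 3, against 4.79, 4.85 and 4.64 in controls 1 to 3. All mutant arrays lay below all control arrays, as they did in 14.4% of all tested probes. The difference of -0.48 (SE 0.14) missed an adjusted p of 0.05 in limma (0.128). These values come from 1 probe, and whether it lies within the deleted segment was not determined. Between 63.9% and 74.4% of probes were well above background on mutant arrays, against 73.4% to 76.3% on control arrays. The lowest signals of mutants 1 and 2 were 7.98 and 6.85 intensity units, against 2.31 to 3.31 on the other 4 arrays. Control 1, mutant 2 and mutant 3 shared slide 1, and the other 3 arrays shared slide 2. The endocrine markers Ins1, Gcg and Sst were above the 75th percentile on every array, at 7.80 to 8.28, 7.68 to 8.63 and 7.93 to 8.49 in mutants, against 7.68 to 8.11, 7.79 to 8.35 and 7.49 to 8.25 in controls.

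Of the 15 aquaporin probes, 9 were well above background on all 6 arrays and 2 on none. A probe entered the test when all arrays of a group, mutant or control, showed it well above background, which 11 probes of 8 genes met, and Aqp6 and Aqp9 had no tested probe. No aquaporin probe was saturated. Apart from Aqp4, 0 of the 9 tested probes (7 genes) passed the threshold of an adjusted p under 0.05 in limma, and 1, Aqp7, had an unadjusted p under 0.05. Over the whole array 2.76% of 28362 tested probes passed (1.47% higher and 1.29% lower in mutants), so a count of 0 among 9 does not set the family apart. Of the 9 probes, 5 had a difference above 0 and 4 below 0. Both Aqp5 probes are among those below 0 and entered the test through the control arrays only.

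**Figure D1:**
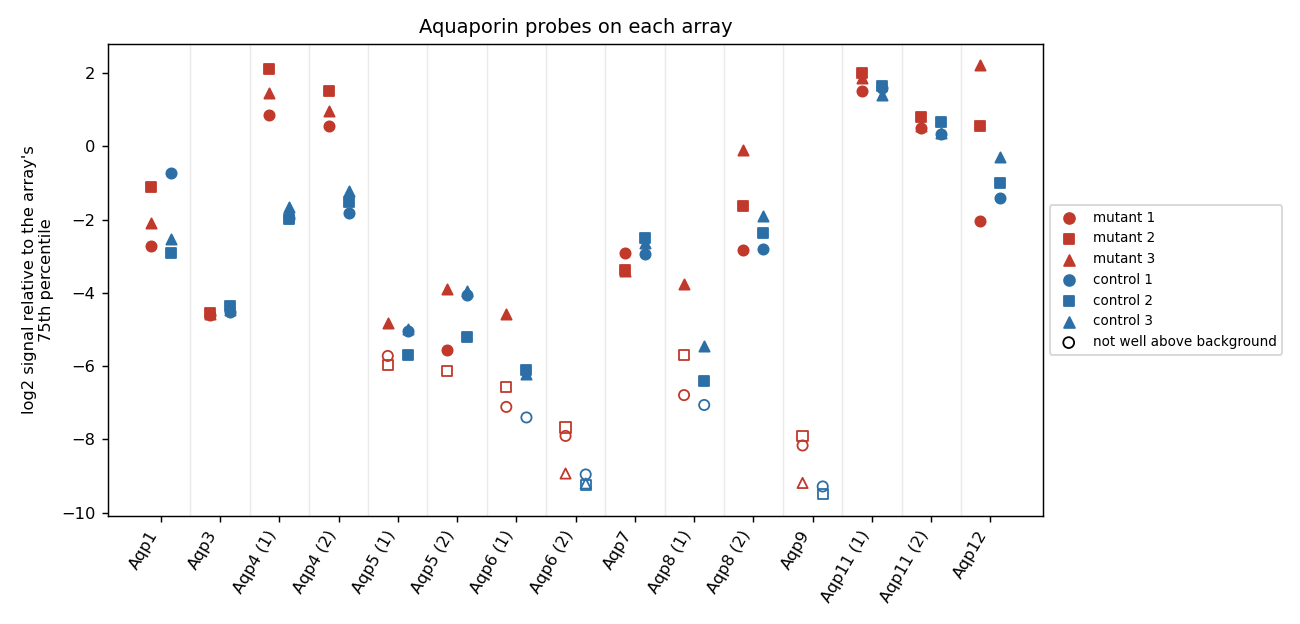
Log2 signal relative to the array's 75th percentile (vertical axis) of each of the 15 aquaporin probes (horizontal axis, probe number in brackets where a gene has several) in the 3 mutant arrays (red, left) and the 3 control arrays (blue, right). Open symbols were not well above background. The mutant and control points of Aqp4 lie apart for both probes, while Aqp12 and Aqp8 spread widest among the mutant arrays.

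Aqp4, the water channel of astrocyte end feet that is also found in gastric parietal cells and muscle, was higher in mutant islets with both of its probes. Both lie on the minus strand of chromosome 18, probe 1 at positions 15547951 to 15548010 and probe 2 at 15551364 to 15551423 (mm9). Probe 1 read 0.87, 2.11 and 1.45 in mutants 1 to 3, against -1.96, -1.99 and -1.65 in controls 1 to 3. Probe 2 read 0.55, 1.52 and 0.95 in the same mutants, against -1.81, -1.52 and -1.22 in the controls. The groups did not overlap with either probe, and the dimmest mutant array was 5.72-fold above the brightest control array for probe 1 and 3.42-fold for probe 2. Every control array was well above background, so the controls too had a measurable Aqp4 signal.

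The mutant mean of Aqp4 was 10.1-fold above the control mean with probe 1 (log2 difference 3.34, SE 0.32, n = 3 per group) and 5.76-fold with probe 2 (log2 difference 2.52, SE 0.28). Before scaling, the background-corrected intensity of probe 1 was 4392.5, 7955.5 and 4419 units in mutants 1 to 3, against 493, 624 and 828 units in controls 1 to 3. Both probes placed the mutants in the same order, with mutant 2 highest and mutant 1 lowest. The difference was 3.74 within slide 1 and 2.69 within slide 2 for probe 1, and 3.05 and 1.92 for probe 2. Mutants spread more than controls, over 1.24 against 0.34 log2 units with probe 1.

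Aqp4 was also compared with other genes by the shape of its profile: the 6 values of probe 1, less their mean, were set against those of 17061 tested genes with a symbol, and likeness was the root mean square of the remaining differences. The 5 closest were Kcnj13, an inwardly rectifying potassium channel (0.20 log2 units), the X-linked homeobox genes Rhox3f (0.25) and Rhox3h (0.26), Ttc25, which takes part in docking the dynein arms of cilia (0.28), and Slc5a10, a sodium-coupled sugar transporter (0.29). Kcnj13 read -1.05, 0.17 and -0.56 in mutants 1 to 3, against -4.28, -3.64 and -3.76 in controls 1 to 3. Its mutants thus fell in the same order as those of Aqp4. Slc5a10 read 0.21, 1.06 and 0.40 in mutants 1 to 3, against -2.91, -2.22 and -2.25 in controls 1 to 3. Rhox3f and Rhox3h are paralogs with related sequences and do not count as independent of each other. By the same measure the other Aqp4 probe lay 0.43 log2 units from probe 1, further than any of these 5 genes. The genes were picked for their likeness over 6 arrays. Their separation by group, and any likeness to Aqp4 in the order of arrays, therefore follow from the choice.

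**Figure D2:**
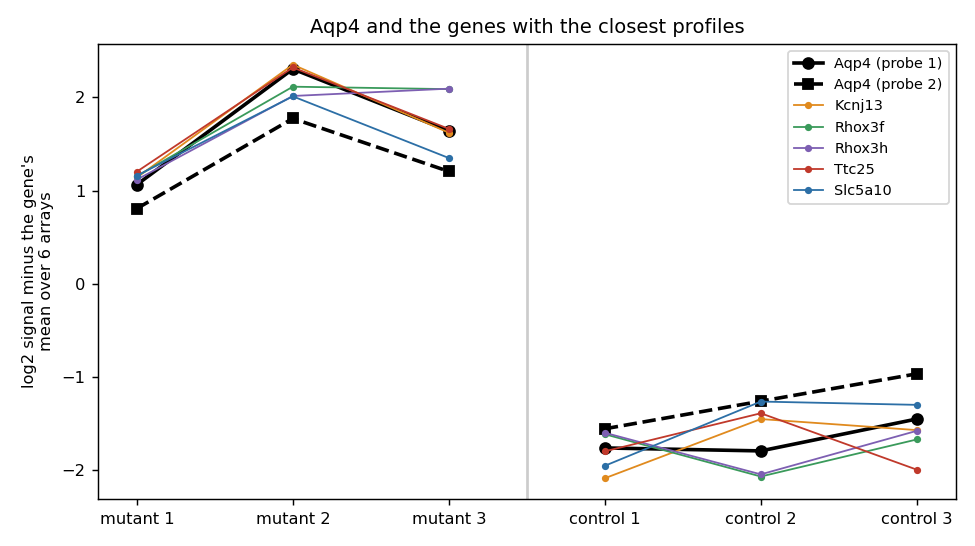
Log2 signal of each gene less its own mean over the 6 arrays (vertical axis) on each array (horizontal axis), for both Aqp4 probes (black) and the 5 genes whose profile lay closest to probe 1 (coloured). Lines join arrays of the same group only to guide the eye. All lines are high in the mutants, and all but Rhox3h, whose highest value is in mutant 3, are highest in mutant 2.

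Aqp12 and Aqp8 are the aquaporins of pancreatic acinar cells, Aqp12 an intracellular protein of the distant branch and Aqp8 a channel of the cell membrane and of organelles. They varied more between mutant samples than any other tested aquaporin. The sequences of their 3 probes are shown because the signals below rest on them, and capitals mark the motif AATAAA, the usual polyadenylation signal, which stands near the 3′ end of many transcripts.
Aqp12: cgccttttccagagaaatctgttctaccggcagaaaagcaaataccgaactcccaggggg
Aqp8 probe 1: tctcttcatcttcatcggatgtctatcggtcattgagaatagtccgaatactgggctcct
Aqp8 probe 2: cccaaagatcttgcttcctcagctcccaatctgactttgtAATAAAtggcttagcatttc

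The Aqp12 probe lies on the plus strand of chromosome 1 at positions 94908593 to 94908652, and the Aqp8 probes on the plus strand of chromosome 7 at 130606210 to 130606269 and 130611453 to 130611512 (mm9). The motif was searched in the letters of each probe as printed, where it occurred in 3 of the 15 aquaporin probes and in 12.6% of all 39429 probes, and its reverse complement TTTATT occurred in 1 aquaporin probe, of Aqp5, which is printed below. Probes of different aquaporins shared at most 11 bases in a row. Probe 2 of Aqp8 was well above background on all 6 arrays. Probe 1 of Aqp8, which lies 5184 bases away in the genome, was so on 1 mutant and 2 control arrays and was not tested.

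Aqp12 read -2.04, 0.57 and 2.21 in mutants 1 to 3, against -1.41, -1.01 and -0.29 in controls 1 to 3. Mutant 1 was below every control and mutants 2 and 3 were above every control, so the groups overlapped. The means were 0.25 ± 2.14 in mutants and -0.90 ± 0.57 in controls (SD, n = 3 each), and the difference of 1.15 (SE 1.04) did not pass (limma, adjusted p = 0.572). Probe 2 of Aqp8 read -2.83, -1.62 and -0.11 in mutants 1 to 3, against -2.81, -2.38 and -1.89 in controls 1 to 3. Its difference of 0.84 (SE 0.68) did not pass either (limma, adjusted p = 0.528). It was 0.13 without mutant 3, 1.49 without mutant 1 and 2.25 without both mutants 1 and 2. Probe 1 of Aqp8 read -6.79, -5.70 and -3.75 in mutants, against -7.06, -6.42 and -5.46 in controls, with the highest value again in mutant 3.

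The differences of both genes had opposite signs on the 2 slides. Aqp12 differed by 2.79 within slide 1 and by -1.39 within slide 2, and probe 2 of Aqp8 by 1.94 and -0.69. Of the 16 tested acinar markers (17 listed), digestive enzymes and acinar transcription factors, 15 likewise differed above 0 within slide 1 and below 0 within slide 2. The exception was the amylase Amy2a5, at -0.03 within slide 1 and -0.23 within slide 2. With the control mean set to 0, the mean log2 level of all 16 was -0.85, 0.93 and 1.87 in mutants 1 to 3, against -0.30, -0.06 and 0.36 in controls 1 to 3. Ordered by this mean, the 6 arrays stood in the same order as by Aqp12 and as by probe 2 of Aqp8. The summed level of the acinar markers ranged from 928 to 4376 times the 75th percentile in mutants and from 1387 to 1887 times in controls, none of them was at background, and 0 of the 16 passed in limma. Taken relative to the acinar mean of the same array, Aqp12 differed by 0.50 (SD 0.76 in mutants, 0.24 in controls). Probe 2 of Aqp8 differed by 0.19 (SD 0.33 and 0.13). This subtraction takes the gene to change as much as the acinar mean. Aqp12 spanned 4.24 log2 units over the arrays and the acinar mean 2.72, and the remaining Aqp12 values still stood in the acinar order. The part of acinar RNA in these values was not tested.

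**Figure D3:**
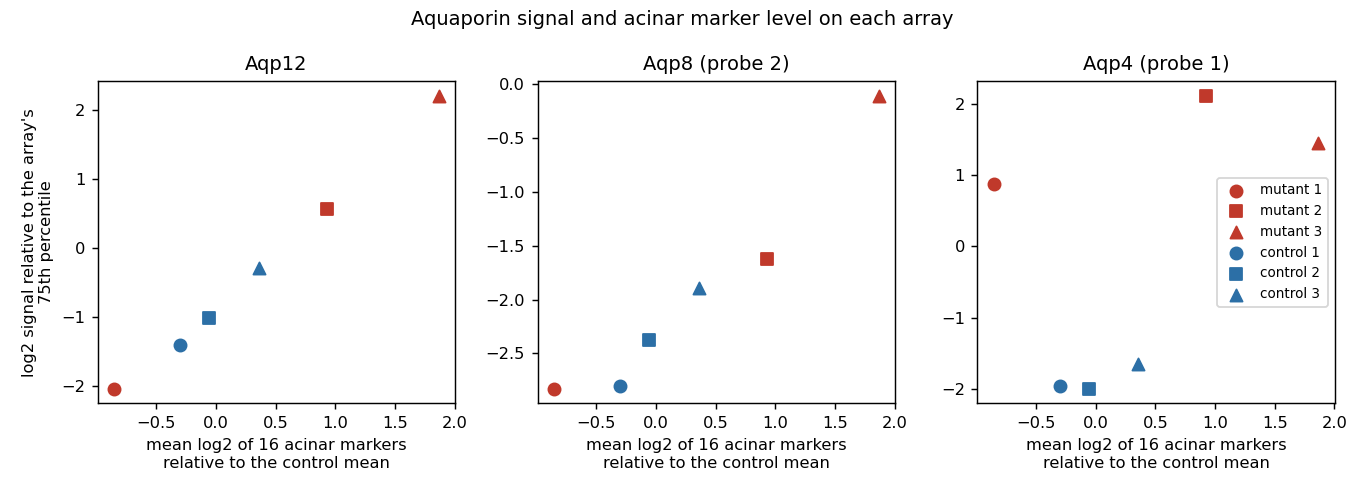
Log2 signal relative to the array's 75th percentile (vertical axis, its range differs between panels) of Aqp12, Aqp8 (probe 2) and Aqp4 (probe 1) against the mean log2 level of 16 acinar markers relative to the control mean (horizontal axis), with 1 point per array, mutants in red and controls in blue. Aqp12 and Aqp8 stand in the same order as the acinar markers over the 6 arrays. In the Aqp4 panel the 3 mutants lie above the 3 controls, which follows from the choice of Aqp4 for its rise.

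Aqp4 did not place the arrays in the order of the acinar markers. Mutant 1, with the lowest acinar level of all arrays, had an Aqp4 probe 1 signal of 0.87, against -1.65 in control 3, the control with the most acinar signal. Because Aqp4 was chosen for its rise, a mutant above a control follows from the choice. The 6 tested markers of Schwann cells and glia (of 7 listed), of which Gfap marks astrocyte-like glia and Sox10 the Schwann lineage, had a median difference of 0.10 with 0 of 6 past the threshold. Their summed level was 1.37, 1.23 and 1.18 times the 75th percentile in mutants 1 to 3, against 0.99, 1.27 and 1.01 times in controls 1 to 3. Gfap averaged -5.73 in mutants and -5.77 in controls and was above background on 2 mutant and 3 control arrays. The part of acinar or glial RNA in the Aqp4 values was not tested.

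Aqp1, a water channel of red blood cells, capillary endothelium and pancreatic duct cells, has a single probe on the plus strand of chromosome 6 at positions 55298480 to 55298539 (mm9). This probe, shown because its signal also spread widely, carries the motif AATAAA (capitals) towards its 3′ end.
Aqp1: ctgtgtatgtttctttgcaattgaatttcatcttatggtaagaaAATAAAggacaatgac

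Aqp1 read -2.72, -1.10 and -2.08 in mutants 1 to 3, against -0.74, -2.90 and -2.53 in controls 1 to 3. The highest values of both groups, mutant 2 and control 1, came from slide 1, and the groups overlapped. The difference of 0.09 (SE 0.67) was far smaller than the spread (limma, adjusted p = 0.952), at -0.85 within slide 1 and -0.0035 within slide 2. The endothelial markers (10 tested) were also highest in control 1, with a mean of 0.10, 0.15 and 0.12 relative to the control mean in mutants 1 to 3, against 0.36, -0.17 and -0.19 in controls 1 to 3. The mesenchyme and stellate cell markers (9 tested) stood at 0.40, 0.48 and 0.29 in mutants 1 to 3, against 0.80, -0.27 and -0.53 in controls 1 to 3. The red blood cell markers (6 of 7 tested) instead stood at 0.88, 0.23 and -0.40 in mutants 1 to 3, against 0.02, 0.11 and -0.13 in controls 1 to 3, and were highest in mutant 1, where Aqp1 was lowest among mutants. Summed levels ranged from 32.2 to 32.9 in mutants against 28.2 to 34.9 in controls for the endothelial list, and from 30.4 to 64.3 against 27.2 to 34.4 for the red blood cell list, with 0 genes of the 3 lists past the threshold. The part of these cells in the Aqp1 values was not tested.

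Aqp5, an apical water channel of secretory glands and ducts, gave low signals with both probes, which lie on the plus strand of chromosome 15 at positions 99424655 to 99424714 and 99425138 to 99425197 (mm9). Their sequences differ in base composition, with 32 and 27 G or C among 60 bases, and capitals would mark the same motif, which neither holds.
Aqp5 probe 1: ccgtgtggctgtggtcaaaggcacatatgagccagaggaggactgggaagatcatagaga
Aqp5 probe 2: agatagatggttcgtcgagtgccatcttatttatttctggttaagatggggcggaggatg

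Probe 2 of Aqp5 read -5.56, -6.12 and -3.91 in mutants 1 to 3, against -4.05, -5.21 and -3.96 in controls 1 to 3. It was above background on 2 mutant and 3 control arrays, and mutant 3 was the highest of all 6. Its difference of -0.79 (SE 0.63) did not pass (limma, adjusted p = 0.526), and that of probe 1, at -0.28 (SE 0.35), did not either (limma, adjusted p = 0.683). Probe 1 was above background on 1 mutant and 3 control arrays. Both probes entered the test through the control arrays only, so the size of their differences rests partly on background signal. With an array left out, the difference ran from -1.43 (without mutant 3) to -0.33 (without mutant 2) for probe 2 and from -0.61 to -0.05 for probe 1 with the same arrays left out, and it was -0.26 and -0.04 under normexp background correction. Within slides 1 and 2 probe 2 differed by -0.96 and -0.98, and probe 1 by -0.37 and -0.39. The 9 duct markers had a mean of -0.18, -0.06 and 0.60 relative to the control mean in mutants 1 to 3, against 0.32, -0.22 and -0.10 in controls 1 to 3. Mutant 3 was high and control 2 low for both the list and Aqp5. Mutant 2, the lowest array for both Aqp5 probes, was not the lowest for the list. Control 1 was the highest control for the list but not for either Aqp5 probe. The summed level of the duct markers ranged from 9.31 to 11.6 in mutants, against 8.68 to 9.94 in controls, with 0 of 9 past the threshold. The part of duct cells in the Aqp5 values was not tested.

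Aqp2, the vasopressin-regulated channel of the kidney collecting duct, and Aqp6, a channel of intracellular vesicles in kidney, neighbour Aqp5 on chromosome 15. The gap between probes was 11.1 kb from Aqp2 to Aqp5 and 9.48 kb from Aqp5 to Aqp6 (mm9). Aqp2 was not among the genes chosen, but its probe was tested: it read -3.68, -4.50 and -4.51 in mutants 1 to 3, against -4.44, -3.23 and -3.26 in controls 1 to 3, a difference of -0.59 (SE 0.40) that did not pass (limma, adjusted p = 0.461). Probe 1 of Aqp6 was above background on 1 mutant and 2 control arrays, at -7.11, -6.57 and -4.57 in mutants 1 to 3, against -7.40, -6.10 and -6.20 in controls 1 to 3. Mutant 3 was thus the highest array for this Aqp6 probe as it was for Aqp5, Aqp8 and Aqp12. Probe 2 of Aqp6, which also holds the motif AATAAA, was above background on no array, and neither was Mip, the aquaporin of lens fibres.

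The aquaglyceroporins Aqp3, Aqp7 and Aqp9 carry glycerol as well as water. Aqp7, which in fat cells releases the glycerol set free by lipolysis, had the smallest p of the tested members other than Aqp4. Its probe lies on the minus strand of chromosome 4 at positions 40980431 to 40980490, 59.5 kb from the Aqp3 probe at 41039962 to 41040021 on the same strand (mm9). Both sequences are given for these neighbouring genes, and neither holds the motif that capitals mark.
Aqp7: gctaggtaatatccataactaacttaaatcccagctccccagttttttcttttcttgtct
Aqp3: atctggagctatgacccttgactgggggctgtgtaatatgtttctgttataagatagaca

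Aqp7 read -2.90, -3.36 and -3.41 in mutants 1 to 3, against -2.94, -2.49 and -2.64 in controls 1 to 3. Mutants 2 and 3 lay below every control, while mutant 1 lay just above control 1, so the groups overlapped. The means were -3.22 ± 0.28 in mutants and -2.69 ± 0.23 in controls (SD, n = 3 each). The difference of -0.53 (SE 0.19), a 1.45-fold lower mean, did not pass (limma, adjusted p = 0.199, unadjusted p = 0.031). It was -0.44 within slide 1 and -0.34 within slide 2. The 4 tested fat markers (of 6 listed) had a mean of -0.44, -0.33 and 0.14 in mutants 1 to 3, against 0.15, -0.06 and -0.09 in controls 1 to 3, in another order than Aqp7, and 0 of them passed. Adipoq and Plin1, defining markers of fat cells, had no tested probe.

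Aqp3, a channel of epithelial basal membranes, was the steadiest member. It read -4.60, -4.54 and -4.59 in mutants 1 to 3, against -4.53, -4.35 and -4.46 in controls 1 to 3. All mutants lay below all controls, as they did in 14.4% of all tested probes (26.4% had no overlap in either direction). The difference was -0.13 (SE 0.10) and did not pass in limma (adjusted p = 0.506), and the slides gave -0.035 and -0.20. Its sign was positive under normexp background correction and in the deposited equalized values. Aqp9, the glycerol channel of liver, was above background on no array once an outlier-flagged spot of 106.8 intensity units in control 3 was left out, against 2.79 to 8.39 units in mutants and 3.08 and 3.44 units in the other controls. In Aqp9 and in probe 2 of Aqp6 the mutants read higher than the controls, with mutants 1 and 2 highest, the arrays with the raised lowest signal. No fold is given for these 2 probes because both groups were at background.

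Aqp11, an aquaporin of the distant branch that sits in the endoplasmic reticulum, was well above background on every array and differed little between groups. Its probes lie on the minus strand of chromosome 7, probe 1 at positions 104874889 to 104874948 and probe 2 at 104877482 to 104877541 (mm9), 2534 bases apart. They are shown as 2 separate stretches that read the same gene, and capitals would mark the motif, which is in neither.
Aqp11 probe 1: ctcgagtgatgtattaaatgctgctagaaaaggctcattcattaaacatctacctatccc
Aqp11 probe 2: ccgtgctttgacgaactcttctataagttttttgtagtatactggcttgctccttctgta

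Probe 1 of Aqp11 read 1.52, 2.00 and 1.87 in mutants 1 to 3, against 1.60, 1.63 and 1.40 in controls 1 to 3. Probe 2 read 0.50, 0.81 and 0.57 in mutants 1 to 3, against 0.34, 0.66 and 0.36 in controls 1 to 3. With both probes the groups overlapped and mutant 2 was highest, but control 1 was lowest of all arrays with probe 2 and not with probe 1. The differences of 0.25 (SE 0.16) and 0.17 (SE 0.14) did not pass (limma, adjusted p = 0.416 and 0.545), and they were 0.34 and 0.35 within slide 1 and 0.0063 and -0.010 within slide 2.

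**Figure D4:**
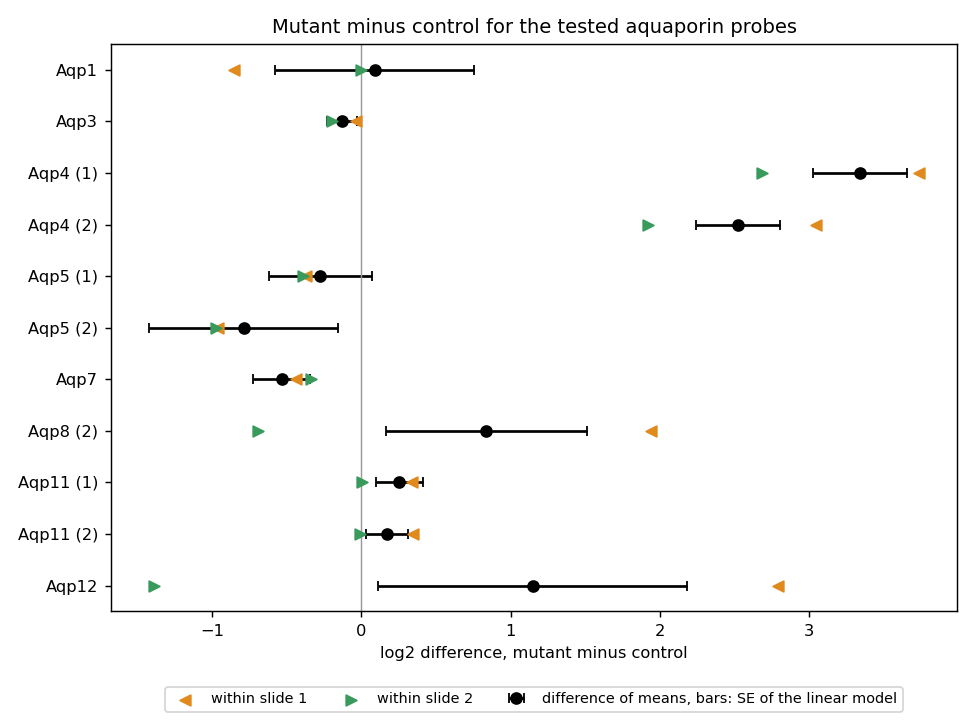
Log2 difference between mutant and control means (horizontal axis) for each of the 11 tested aquaporin probes (vertical axis, probe number in brackets). Black points are the difference with the SE of the linear model, and triangles are the differences within slide 1 (orange) and slide 2 (green). Both Aqp4 probes lie above 1.9 in either slide, while Aqp12 and Aqp8 change sign between the slides.

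The replicate spread set what could be resolved for each gene. The pooled SD within groups was 1.57 log2 units for Aqp12, 1.02 for probe 2 of Aqp8, 1.00 for Aqp1 and 0.95 for probe 2 of Aqp5, which is wider than in 99.6%, 98.0%, 97.9% and 97.5% of all tested probes. It was 0.46 and 0.40 for the Aqp4 probes, 0.26 for Aqp7, 0.20 and 0.17 for Aqp11 and 0.069 for Aqp3, against a median of 0.20 over all tested probes. For Aqp12 the SE of the difference was 1.04, for Aqp8 0.68 and for Aqp1 0.67, against 0.16 and 0.14 for the Aqp11 probes, so changes of about 1 log2 unit in the acinar pair or in Aqp1 were not detectable with these 6 arrays.

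**Figure D5:**
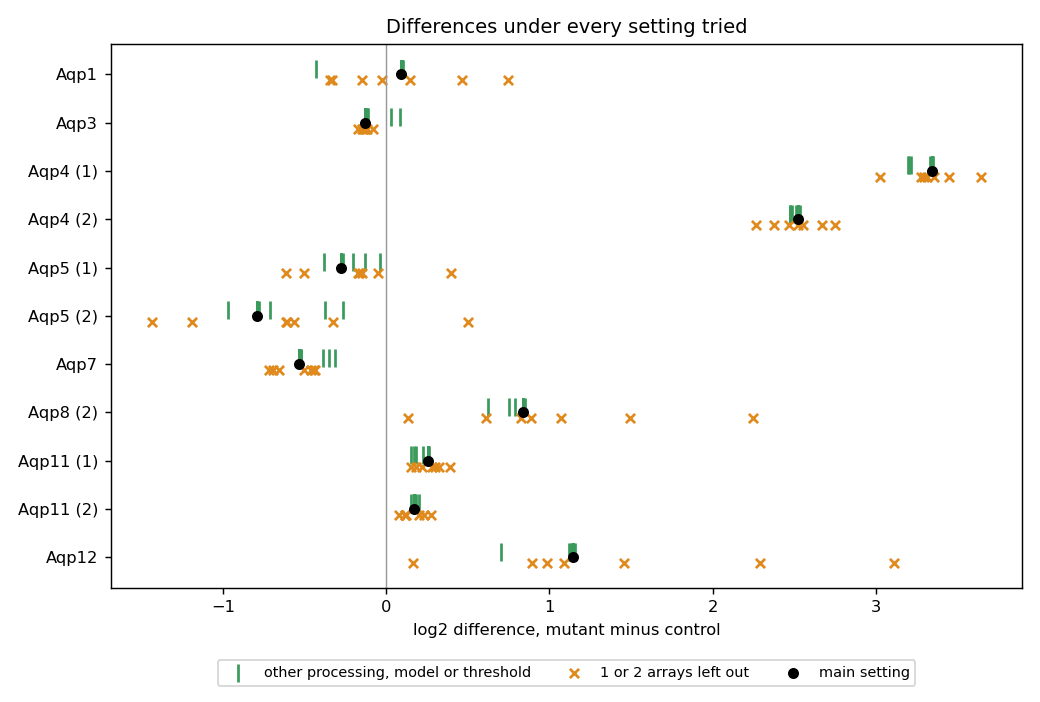
Log2 difference between mutant and control means (horizontal axis) of each tested aquaporin probe (vertical axis) under the main setting and the 19 other settings, among them other normalizations, blocks and arrays left out. Both Aqp4 probes stay between 2.27 and 3.64, Aqp1 falls on either side of 0, and Aqp12 ranges from 0.17 to 3.11.

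Genes that work with aquaporins were counted from 4 lists, each gene by its brightest tested probe, against a background of 2.72% of 22821 genes past the threshold (1.5% higher and 1.21% lower in mutants) and a median difference of -0.026. Of 10 tested genes of aquaporin anchoring and its potassium channel partners (13 listed), 0 rose and 1 fell, with a median of -0.065. The fall was Sntb2, beta-2-syntrophin, an adaptor of the dystrophin complex, which read -1.997, -2.05 and -2.18 in mutants 1 to 3, against -1.29, -1.19 and -1.34 in controls 1 to 3 (difference -0.80, SE 0.11; limma, adjusted p = 0.0253). That call was lost without mutant 2 (0.104), mutant 3 (0.069), control 2 (0.122) or control 3 (0.117). Kcnj10, the potassium channel found beside Aqp4 in glia, differed by 0.28 (limma, adjusted p = 0.458).

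Of 11 tested genes of glycerol release and use (12 listed), 1 rose and 0 fell, with a median of -0.022. The rise was Gk, glycerol kinase, which phosphorylates the glycerol that aquaglyceroporins admit. Gk read -3.10, -3.16 and -2.87 in mutants 1 to 3, against -5.66, -5.46 and -5.60 in controls 1 to 3, with no overlap. The difference was 2.53 (SE 0.12; limma, adjusted p = 0.00316), a 5.77-fold higher mean, and 1.53 under normexp background correction. The call of Gk held in 17 of the 19 other settings, among them the 6 fits that each left out a single array. It was lost with a replicate block (limma, adjusted p = 0.058). Gpd1, which links glycerol phosphate to glycolysis, differed by 0.38 (limma, adjusted p = 0.276) and Pnpla2, a triglyceride lipase, by -0.0087 (limma, adjusted p = 0.971).

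Of 18 genes of cell volume and osmolyte handling, 0 passed, with a median of 0.039. The largest differences were 0.94 for Stk39, a kinase that controls cation-chloride cotransport (limma, adjusted p = 0.0545), and 0.75 for Lrrc8b, a subunit of volume-regulated anion channels (limma, adjusted p = 0.0520). In 7 of these 18 genes the groups did not overlap, against 26.3% of all genes. The same held for 5 of the 11 glycerol genes and 4 of the 10 anchoring and partner genes. Of 12 tested genes of pancreatic fluid and bicarbonate secretion (13 listed), 0 passed, with a median of 0.35, and in 4 the groups did not overlap. Cftr, the chloride channel of duct cells, read -4.37, -2.50 and -2.56 in mutants 1 to 3, against -5.13, -7.11 and -6.54 in controls 1 to 3, and differed by 3.12 (SE 0.69; limma, adjusted p = 0.0788). Its probe entered the test through the mutant arrays and was above background on only 2 of the 3 control arrays, so the size of that difference rests partly on background signal. It also stands among the duct markers. Car12, a carbonic anhydrase, differed by 1.08 (limma, adjusted p = 0.225).

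Beside these, 3 of the 8 beta cell markers fell and 0 rose, against 1.21% lower and 1.5% higher over all tested genes. They were Slc2a2, the glucose transporter (-2.01), Ucn3, a peptide of mature beta cells (-1.24), and Slc30a8, the granule zinc transporter (-0.96), with adjusted p of 0.0395, 0.0216 and 0.0264 in limma. Their calls held in 11, 13 and 10 of the 19 other settings. In the other 10 marker lists 0 genes passed.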

How the data were processed

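Single-colour Agilent arrays received 150 ng of Cy3-labelled RNA per sample. Per the file headers and the submitters' processing notes, spots were read with Agilent Feature Extraction 10.7.3.1, and the deposited intensity was background-subtracted and detrended, each array by itself. These deposited files also carry flags (other values) for outlying, saturated and above-background spots. A deposited table of linear intensity, equalized by a method not stated, served as an alternative; its column medians were 272.8, 274.5 and 274.55 in mutants 1 to 3 and 270.2, 266.95 and 268.3 in controls 1 to 3.

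Flagged spots were left out (96 to 161 per array), spots of a probe were averaged as log2, and the 75th percentile of the array was subtracted. limma 3.58.1 in R 4.3.3 (files read by data.table, version 1.17.8) fitted 28362 probes, two-sided, with Benjamini-Hochberg adjustment over all of them. Log2 differences are mutant minus control. The fit was tested on simulated data. Probe positions are those of the files (mm9). No annotation of that build was used here, so exons and UTRs are not given. Symbols were updated by accession from a GRCm38 table, which matched 15544 of 22821 genes. Arrays have no read depth: signal over background and 3 arrays per group bound what can be resolved.

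The members, lists and tests were chosen with earlier results of these data known. Named were all members, Nkx6-1, up to 4 passing genes of a list with the smallest p or else the 2 with the largest difference, and the 5 profiles closest to Aqp4. Kcnj10, Gpd1 and Pnpla2, and the defining markers Ins1, Gcg, Sst, Gfap and Sox10, were added for their role after their values were seen. Nothing says that the replicate numbers mark shared litters, so they were not used as pairs. Deviations of same-numbered samples correlated at -0.22, -0.17 and -0.034 over probes. Same-numbered samples always sat on different slides, and mutant and control arrays sharing a slide correlated at 0.084 to 0.22. The correlations therefore cannot decide whether the numbers mark pairs. Each sample is a separate pool of animals.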

Additional observations from a re-analysis of the deposited data

How the results depend on the processing

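The 19 other settings were normexp background correction, the deposited equalized values, quantile normalization, median scaling, no filter or a stricter filter on dim probes, flagged spots kept, a slide block, a replicate block, a variance trend with robust estimation, 1 probe per gene, an adjusted p under 0.1, each array left out, and mutants 1 and 2 left out together. The count of aquaporin probes past the threshold other than Aqp4 was 0 under each of them, with a lowest adjusted p of 0.098 over 167 refits. Where few or no probes passed over the whole array, a count of 0 carries little information. The Aqp4 difference of probe 1 ran from 3.20 to 3.35, and from 3.02 to 3.64 with an array left out. That of Aqp12 ran from 0.70 with a slide block to 3.11 without mutants 1 and 2, and from 0.17 to 2.29 with an array left out. The sign turned under 5 settings for Aqp1, 2 for Aqp3 and 1 for each Aqp5 probe, and under none for the other members tested. The Nkx6-1 difference ran from -0.59 to -0.31 and never passed.

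Over the whole array, 782 probes passed (417 higher, 365 lower), against 0 with a replicate block, where 4060 had an unadjusted p under 0.05, 2023 at an adjusted p under 0.1, 4 without mutants 1 and 2, and 24 (without control 2) to 567 (without control 1) with an array left out. Leaving out mutant 1, 2 or 3 gave 461, 46 and 242, and control 3 gave 46. Without the filter 524 passed, 393 higher and 131 lower. Of 136 pathway and marker genes 5 passed, against 9 with the stricter filter, 8 with trend and robust estimation, 13 at an adjusted p under 0.1, 0 with a replicate block, 0 without mutants 1 and 2, and 1 to 5 with an array left out. With 0 probes past the threshold over the whole array, the replicate block says nothing about the stability of the aquaporin count. The cause of these shifts was not tested. Signal near background limits what can be said of Aqp5, Aqp6, Aqp9 and probe 1 of Aqp8.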
